A study of Saccharomyces cerevisiae with 3 samples.

Results

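Yeast cells expressing a mutant C-terminal fragment of Zuo1 were set directly against yeast cells expressing a mutant Ssz1. These are 2 of the 3 arrays of the study, and the comparison does not use the array of the plasmid control. A gene was kept where the brighter array of the pair read at or above its own 25th percentile, which held for 4411 of 5777 genes (76.4%). It is called higher or lower where the 2 arrays differed by at least 1.5-fold in the same direction in each of the 3 blocks of values that every array file holds. All cells were Saccharomyces cerevisiae strain DS10, freshly transformed with the low-copy plasmid pRS415 carrying the strong GPD promoter, and grown to log phase without leucine, which selects for the plasmid. The insert was a Zuo1 stretch from residue 365 to residue 433 carrying S427G in the first group, Ssz1 with the substitution S295F in the second, and TAP in the third, called vector here. The titles call every group WT. Neither the labels nor the array values say whether the product of a plasmid was made as protein.

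Zuo1 is a J-protein and Ssz1 its Hsp70-like partner in the ribosome-associated complex, which works with the Hsp70s Ssb1 and Ssb2 on chains leaving the ribosome. Each of them can also activate Pdr1, the zinc-cluster transcription factor that drives pumps and lipid genes of pleiotropic drug resistance, and the C-terminal end of Zuo1 is enough for this. The comparison therefore asks how the transcripts of cells with 1 activator differ from those of cells with the other, with the same promoter, plasmid and strain.

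RNA of 3 cultures per plasmid was pooled and put on 1 one-colour array, so no spread between cultures exists, no p-value was computed, and every difference describes these arrays. An error below is the SD of a difference over the 3 blocks. It covers the spread between blocks within this pair of arrays, and not noise between arrays or between cultures. In bulk RNA, a different share of expressing cells and a different level per cell cannot be told apart. Median intensities were 2720 (Zuo1 fragment), 2701 (Ssz1 S295F) and 2806 (vector), and the 25th percentiles were 1261, 1252 and 1374 in that order. Readings under the 5th percentile (189, 193 and 211) are named as such. Of 7 genes of mating type a on the array, 6 passed the level filter. STE2, the receptor for alpha-factor, read 13400 with the Zuo1 fragment and 12748 with Ssz1 S295F, while ASG7 (1231 and 961) was under the filter. The alpha-specific STE3 (26.2 and 61.7) and the main alpha-factor gene lay under the 5th percentile of each construct array. The other members of the alpha-specific list were not that low: MF(ALPHA)2 lay between the 5th and the 25th percentile on each, and SAG1, alpha-agglutinin, read 2062 with the Zuo1 fragment and 2206 with Ssz1 S295F.

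Genes carried on the plasmids bear on the labels. SSZ1 (YHR064C, chromosome VIII, 225527 to 227143) read 12200, 12105 and 11704 in the 3 blocks of the Zuo1 fragment array, against 19770, 19699 and 18512 on the Ssz1 S295F array, and averaged 10279 with vector. The difference was -0.69 ± 0.02 on the log2 scale, lower with the Zuo1 fragment. SSZ1 is the insert of the plasmid it is compared with, and the array does not separate the plasmid copy from the chromosomal one. ZUO1 read 12935 with the Zuo1 fragment, 13744 with Ssz1 S295F and 13337 with vector, a construct difference of -0.09 ± 0.04. The fragment covers 69 residues and the array files give no probe positions, so this reading does not check the Zuo1 fragment. TDH3, the glycolytic gene whose promoter is the GPD promoter, differed by 0.05 ± 0.03, and LEU2, the plasmid's marker, by 0.10 ± 0.05. Of the other chaperones that act at the ribosome, none reached 1.3-fold, a step that 1.75% of all genes above the filter passed. They ran between -0.09 for ZUO1 and 0.16 for JJJ1, a J-protein of late large-subunit maturation.

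The 2 construct arrays were close to each other over most genes. The median difference, Zuo1 fragment minus Ssz1 S295F, was 0.02 on the log2 scale, 93.0% of the 4411 genes lay within 1.2-fold, and the 5th and 95th percentiles of the difference were -0.24 and 0.22. Past 1.5-fold in all 3 blocks, 4 genes were higher with the Zuo1 fragment (0.0907%) and 11 were lower (0.249%), 15 in all (0.34%). The 11 include SSZ1, the insert of the Ssz1 S295F plasmid. A smaller step of 1.3-fold in all 3 blocks held 27 higher genes (0.612%) and 50 lower genes (1.13%), 77 in all (1.75%). Of the 15 genes past 1.5-fold, 10 passed the level filter through the brighter array alone, so for those the dimmer array read below its 25th percentile. After subtraction of a trend of the difference with coding length, described further on, the split was 2 higher and 17 lower, 10.5% higher against 26.7% without it. YRO2 missed 1.5-fold in at least 1 block under that setting and also once differences were centred, quantile normalized or freed of a trend with level, while PRM7 and GID11 did so under the length setting only; each kept its sign. For PRM7 that setting used the array's span of 348 bp, which is shorter than the gene of 2097 bp in the RefSeq table.

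**Figure D1:**
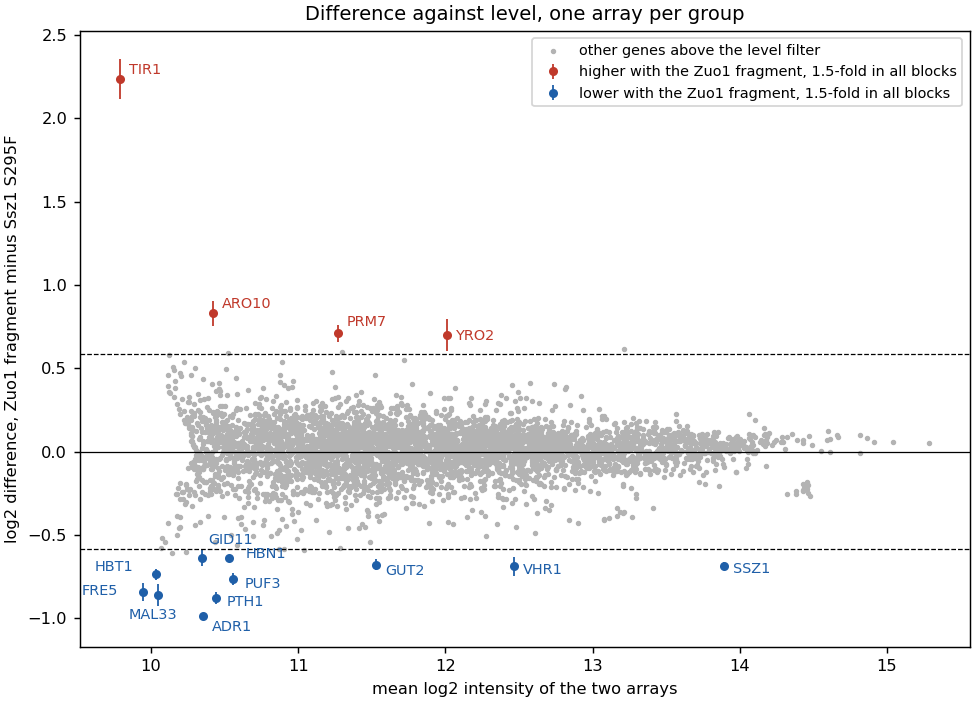
Each point is 1 gene above the level filter, by its mean log2 intensity on the 2 construct arrays (x) and the log2 difference, Zuo1 fragment minus Ssz1 S295F (y). Red and blue points are the 4 higher and 11 lower genes with the SD over 3 blocks, and dashed lines mark 1.5-fold; TIR1 lies at 2.23, and most called genes lie at the dim end.

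Higher with the Zuo1 fragment stood a cell wall gene, an enzyme of amino acid breakdown, a pheromone-regulated gene and a membrane protein gene. TIR1 (YER011W, chromosome V, 175247 to 176011) encodes a serine- and threonine-rich wall mannoprotein that yeast makes when oxygen is scarce or the temperature drops. It read 1930, 1932 and 1903 on the Zuo1 fragment array, against 379, 448 and 401 on the Ssz1 S295F array, with 6753 for vector. That is a 4.71-fold difference (2.23 ± 0.12 on the log2 scale), the only one of the 15 past 2-fold, and the Ssz1 S295F reading was below its array's 25th percentile. ARO10 (YDR380W, chromosome IV, 1234210 to 1236117), the phenylpyruvate decarboxylase that commits aromatic amino acids to the Ehrlich pathway, read 1828 with the Zuo1 fragment, 1029 with Ssz1 S295F and 4910 with vector. Its difference was 1.78-fold (0.83 ± 0.08).

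PRM7 and YRO2 made up the rest of the higher genes. PRM7 (YDL039C, chromosome IV, 381983 to 382330), a pheromone-regulated membrane protein gene, read 3155 with the Zuo1 fragment, 1929 with Ssz1 S295F and 7065 with vector, a 1.64-fold difference (0.71 ± 0.05). On the array it is annotated beside and overlapping YDL038C (382327 to 384078), whereas the RefSeq table lists both names for a single gene of 2097 bp. The YDL038C probe set read 4877 with the Zuo1 fragment, 3750 with Ssz1 S295F and 7994 with vector, a difference of 0.38 ± 0.04, so the 2 probe sets of this gene differed in size and not in direction. YRO2 (YBR054W, chromosome II, 343099 to 344133), a membrane protein gene related to MRH1, read 5256 with the Zuo1 fragment, 3234 with Ssz1 S295F and 5568 with vector. Its differences in the 3 blocks were 0.59, 0.77 and 0.74, the lowest just inside the limit.

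**Figure D2:**
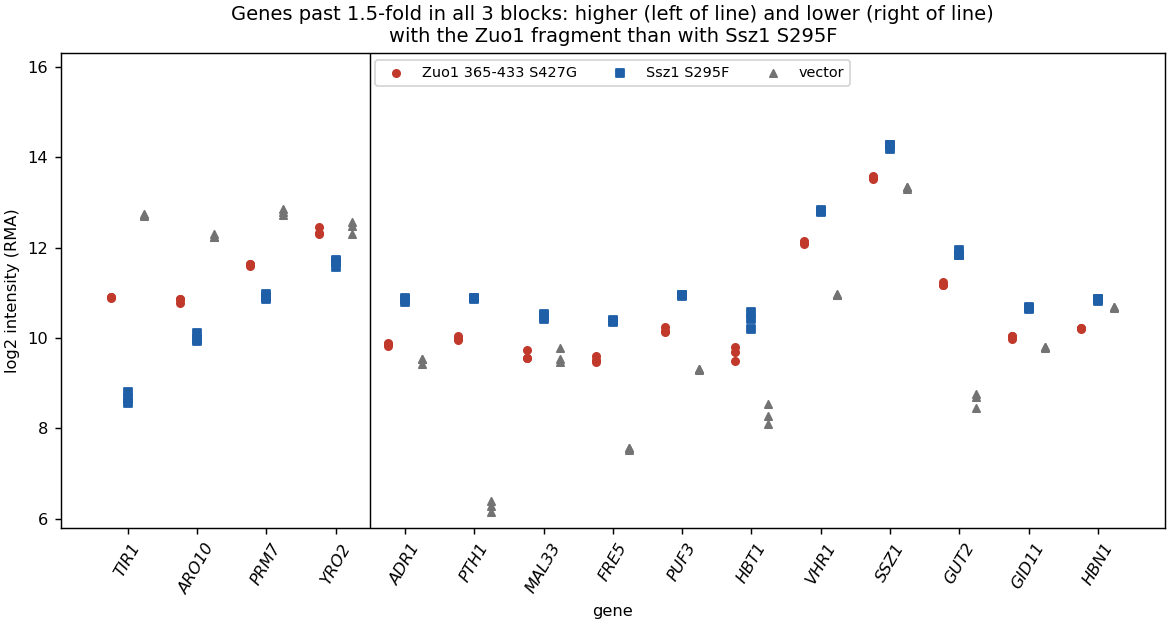
Log2 intensity (y) of the 15 genes past 1.5-fold on the Zuo1 fragment (red circles), Ssz1 S295F (blue squares) and vector (grey triangles) arrays, 1 symbol per block. TIR1, ARO10, PRM7 and YRO2, left of the vertical line, have their red symbols above their blue ones and the other 11 have them below; the vector array was not used to choose them.

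Among the 11 genes lower with the Zuo1 fragment were several regulators of gene expression. ADR1 (YDR216W, chromosome IV, 895031 to 899002), the zinc-finger activator of genes for growth on ethanol, glycerol and fatty acids, read 929 with the Zuo1 fragment, 1842 with Ssz1 S295F and 723 with vector. Its difference of -0.99 ± 0.02 was the lowest of all genes above the filter. CAT8, the activator of gluconeogenic genes, pointed the same way but was just under the level filter. It read 588 with the Zuo1 fragment, 1155 with Ssz1 S295F and 492 with vector (-0.98 ± 0.11) and is named after its value was seen. The list that holds CAT8, gluconeogenesis and glyoxylate, was mixed, with a median of -0.08 over 5 members above the filter. Of all 16 on the array, 6 were positive and 10 negative, with ADH2, above the filter, at 0.15 ± 0.06. VHR1 (YIL056W, chromosome IX, 249989 to 251911), an activator of biotin transport and synthesis genes, read 4450 with the Zuo1 fragment, 7169 with Ssz1 S295F and 1991 with vector (-0.69 ± 0.06). PUF3 (YLL013C, chromosome XII, 122074 to 124713), an RNA-binding protein that controls messages for mitochondrial proteins, read 1158 with the Zuo1 fragment, 1967 with Ssz1 S295F and 633 with vector (-0.76 ± 0.04).

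MAL33 (YBR297W, chromosome II, 800517 to 801923), an activator of a maltose locus, read 785 with the Zuo1 fragment, 1427 with Ssz1 S295F and 770 with vector (-0.86 ± 0.07). A close copy, MAL13, read 863, 1185 and 381 on these arrays in that order, a construct difference of -0.46 ± 0.03, so the MAL33 value is uncertain to the extent that probes share sequence. GID11 (YLR149C, chromosome XII, 437632 to 439824), a substrate receptor of the GID ubiquitin ligase, read 1040 with the Zuo1 fragment, 1622 with Ssz1 S295F and 889 with vector (-0.64 ± 0.05).

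The remaining lower genes act in metabolism, the mitochondrion and cell shape. GUT2 (YIL155C, chromosome IX, 51759 to 53708), the mitochondrial glycerol-3-phosphate dehydrogenase, read 2341 with the Zuo1 fragment, 3744 with Ssz1 S295F and 399.6 with vector (-0.68 ± 0.03). PTH1 (YHR189W, chromosome VIII, 484028 to 484600), a mitochondrial peptidyl-tRNA hydrolase, read 1024 with the Zuo1 fragment, 1884 with Ssz1 S295F and 77.7 with vector (-0.88 ± 0.04). FRE5 (YOR384W, chromosome XV, 1061562 to 1063646), a putative ferric reductase, read 738 with the Zuo1 fragment, 1322 with Ssz1 S295F and 187 with vector (-0.84 ± 0.05). With vector, PTH1 and FRE5 both lay under the array's 5th percentile. HBT1 (YDL223C, chromosome IV, 57266 to 60406), a gene for a polarity protein bound by the ubiquitin-like Hub1, read 811 with the Zuo1 fragment, 1351 with Ssz1 S295F and 317 with vector (-0.74 ± 0.03). HBN1 (YCL026C-B, chromosome III, 73405 to 73986), similar to bacterial nitroreductases, read 1187 with the Zuo1 fragment, 1848 with Ssz1 S295F and 1638 with vector (-0.64 ± 0.02). Its paralogue FRM2 lay under the 5th percentile on all 3 arrays.

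A few genes stood at the limits. Just inside in their least extreme block were YRO2 (0.59), PRM7 (0.67), GID11 (-0.59) and HBN1 (-0.62). Just outside were YDR222W (0.59 ± 0.01), YGP1, a secreted stress glycoprotein (0.61 ± 0.04), and ATF2, an alcohol acetyltransferase (0.60 ± 0.05), on the higher side. TDA8 (-0.60 ± 0.06), the homocysteine methyltransferase MHT1 (-0.58 ± 0.02) and the GATA-type factor GAT2 (-0.58 ± 0.04) were just outside on the lower side.

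Of 46 gene lists drawn from textbook pathways, 35 had a median difference within 0.1 of 0, beside 0.02 over all genes above the filter, of which 57.7% were positive. Each list rests on the members above the level filter, and counts over all members on the array are also given for most lists described. Members above the filter include genes that passed through the array where they were bright, so these counts are descriptions.

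**Figure D3:**
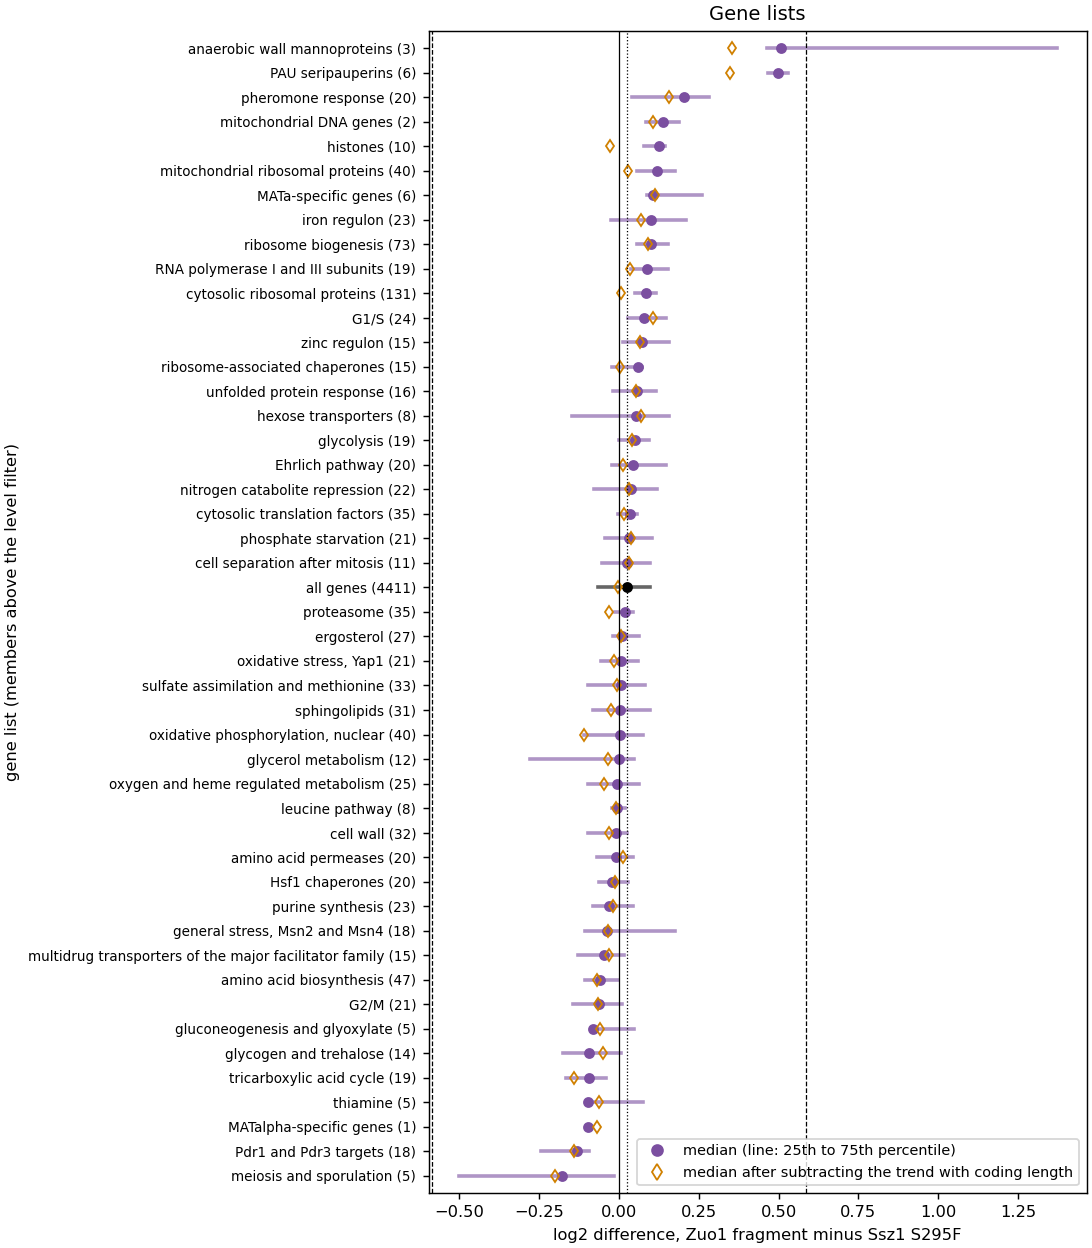
Median log2 difference, Zuo1 fragment minus Ssz1 S295F, of each gene list (filled point), with a line from the 25th to the 75th percentile of its members above the level filter, whose number is in brackets; open diamonds give the median after subtraction of the trend with coding length, the dotted line marks the median of all genes and dashed lines 1.5-fold. The anaerobic wall and PAU lists lie farthest to the right at 0.51 and 0.50, and meiosis and Pdr1 and Pdr3 targets farthest to the left at -0.18 and -0.13. Members of the anaerobic wall and PAU lists above the filter all passed it through the Zuo1 fragment array alone.

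Wall mannoproteins of oxygen-poor growth and the related PAU seripauperins stood highest. Of the anaerobic wall list, 3 of 8 members passed the filter, with a median of 0.51, and over all 8 the median was 0.25 with 7 positive. All 3 read below the 25th percentile with Ssz1 S295F and passed through the Zuo1 fragment array alone. Their positive sign was therefore fixed by the filter. TIR1 was its only member above the filter past 1.5-fold. The median of the 3 is PAU24, which with PAU23 is also in the PAU list, so the 2 lists share members. TIR3 read 1325 with the Zuo1 fragment, 989 with Ssz1 S295F and 3274 with vector (0.42 ± 0.04), while TIR2 (0.03 ± 0.01) and TIR4 (0.09 ± 0.04), both under the filter, were near 0; these 3 are named after their values were seen. DAN1, a wall mannoprotein repressed by oxygen, had the largest difference of all genes on the array at 2.90 ± 0.14, reading 139 with the Zuo1 fragment, 18.7 with Ssz1 S295F and 1561 with vector, but both construct readings lay under the 5th percentile.

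PAU genes form a subtelomeric family whose members share much of their sequence, so single values are uncertain. Of the 21 on the array, 6 passed the filter, with a median of 0.50, each past 1.3-fold and none past 1.5-fold in all blocks. Each of the 6 also passed through the Zuo1 fragment array alone, so their sign was fixed by the filter. Over all 21 the median was 0.45 with 20 positive. PAU13 read 1365 with the Zuo1 fragment, 914 with Ssz1 S295F and 2007 with vector (0.58 ± 0.04). PAU10, PAU24 and PAU14 followed at 0.54, 0.51 and 0.49. The family was split: 11 of the 21 lay between 0.45 (PAU12) and 0.58 (PAU13), PAU2 lay at 0.28, and 9 dimmer members lay between -0.12 (PAU21) and 0.19 (PAU19). These genes are short, and with the trend in coding length taken away the medians were 0.35 for the PAU list and 0.36 for the anaerobic wall list.

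Genes of the pheromone response leaned the same way. Of 28 on the array, 20 passed the filter, with a median of 0.20, and 23 of the 28 were positive; PRM7 was the only member above the filter past 1.5-fold. PRM4 read 2208 with the Zuo1 fragment, 1605 with Ssz1 S295F and 2771 with vector (0.46 ± 0.03), and AGA1, the anchor of the a-agglutinin, read 7864, 5924 and 9331 on these arrays in that order (0.41 ± 0.10). The pathway's transcription factor STE12 differed by -0.06 ± 0.07, and its mediators GPA1 and FUS3 by 0.18 ± 0.01 and 0.22 ± 0.05. The lowest member was PRM10, at -0.22 ± 0.01. Under the filter, the pheromone-induced FIG1 and PRM6 (27.2 with the Zuo1 fragment and 8.60 with Ssz1 S295F, 1.66 ± 0.18) were also past 1.5-fold and read under the 5th percentile on both construct arrays. These members other than PRM7 are named after their values were seen. The a-specific genes had a median of 0.11, with AGA2 at 0.32 ± 0.04 and MFA1 at 0.31 ± 0.01.

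**Figure D4:**
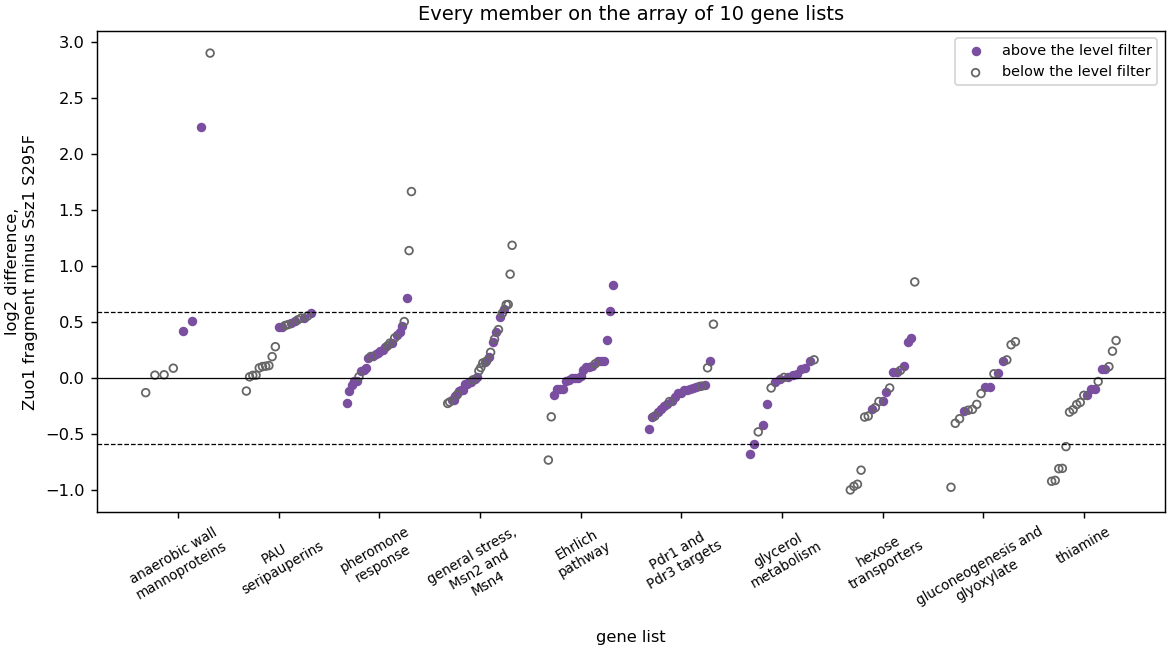
Log2 difference, Zuo1 fragment minus Ssz1 S295F (y), of every member on the array of 10 lists, ordered by value within each list; filled points passed the level filter, open points did not, and dashed lines mark 1.5-fold. Anaerobic wall, PAU and pheromone genes lie mostly above 0, and 17 of the 18 filled points of the Pdr1 and Pdr3 list lie below it.

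Targets of Pdr1 and Pdr3 were lower with the Zuo1 fragment by small amounts. Of 23 on the array, 18 passed the filter, with a median of -0.13. Of the 18, 17 were negative and none passed 1.5-fold, which 0.34% of all genes above the filter did. Over all 23, 20 were negative. PDR5, the main drug efflux pump, read 16620 with the Zuo1 fragment, 17493 with Ssz1 S295F and 9653 with vector, a construct difference of -0.07 ± 0.01. YGR035C was the only member above the filter past 1.3-fold, reading 4872 with the Zuo1 fragment, 6671 with Ssz1 S295F and 2265 with vector (-0.45 ± 0.01). Next came the lipase gene ICT1 (-0.35 ± 0.14), the phospholipase gene PLB1 (-0.31 ± 0.11) and RSB1, which exports sphingoid bases (-0.28 ± 0.03). The pumps SNQ2 and YOR1 differed by -0.11 ± 0.01 and -0.10 ± 0.03. PDR1 itself read 1344 with the Zuo1 fragment, 1598 with Ssz1 S295F and 1416 with vector (-0.25 ± 0.06), and PDR3 differed by -0.13 ± 0.04. GRE2, LAF1, PDR16, TPO1, BDH2, CIS1, IPT1 and FLR1, the other targets above the filter, lay between -0.23 and -0.06. Under the filter HXT9, HXT11 and PDR10 were at -0.34, -0.21 and -0.07. Against this direction stood the pump gene PDR15 (0.15 ± 0.03) and, under the filter, RTA1 (0.09 ± 0.06) and YLL056C (1052 with the Zuo1 fragment and 754 with Ssz1 S295F, 0.48 ± 0.01). The list's median was negative in all 15 other settings tried, between -0.19 and -0.11. Those settings reuse the same pair of arrays, and a changed fold limit cannot move a list's median, so this is no independent support.

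Carbon and glycerol genes were mixed. GUT2 was the only member of the glycerol list above the filter past 1.5-fold, and that list's median was 0.00. The next members, named after their values were seen, were AQY3, an aquaglyceroporin (1714 with the Zuo1 fragment, 2582 with Ssz1 S295F and 353 with vector, -0.59 ± 0.23, with the widest block spread of these), and the osmotic stress factor HOT1 (-0.42 ± 0.05). Hexose transporters were split as well. HXT1, HXT2 and HXT3 lay between 0.05 and 0.10, and HXT6 and HXT7, near-identical high-affinity transporters, at 0.32 ± 0.05 and 0.36 ± 0.01. HXT15 and the glucose sensor SNF3, also above the filter, were negative, at -0.27 ± 0.06 and -0.21 ± 0.02. HXT4 was at 0.86 ± 0.04 just under the filter (1236 with the Zuo1 fragment, 683 with Ssz1 S295F). HXT13, HXT8 and HXT17, all under the filter, were at -0.97, -0.95 and -0.82. Members other than HXT6, HXT7, HXT15 and SNF3 are named after their values were seen. The list's median was 0.05 over 8 members above the filter and -0.21 over all 19.

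General stress genes had a median near 0, at -0.04, with 11 of 18 members above the filter negative and 15 of all 34. The list held HSP12, a membrane-stabilizing small heat-shock protein gene (4084 with the Zuo1 fragment, 2794 with Ssz1 S295F and 4220 with vector, 0.55 ± 0.02), and YGP1 (11746, 7680 and 10458 in that order). Its median was positive without the level filter, at 0.08, where DDR2 (0.93 ± 0.05), SIP18 (1.18 ± 0.06) and HSP26 (0.58 ± 0.07) also enter; SIP18 lay under the 5th percentile on both construct arrays. Among the dim thiamine genes, the near-identical THI11, THI5, THI12 and THI13 ran from -0.92 to -0.81, all under the filter. Of the iron list, FRE5 was the only member above the filter past 1.5-fold. Under it, TIS11 (0.61 ± 0.03), which destabilizes messages in iron shortage, and the heme oxygenase HMX1 (-0.62 ± 0.04) were past it in opposite directions. The list's median was 0.10 above the filter and 0.13 over all 31, with the siderophore transporter SIT1 and the low-affinity iron transporter FET4 each at 0.30. Members of these lists other than FRE5, HSP12 and YGP1 are named after their values were seen.

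Several genes past 1.3-fold but not 1.5-fold belong to sulfur, amino acid and membrane pathways whose lists as a whole had medians near 0. MMP1, the S-methylmethionine permease, read 1529 with the Zuo1 fragment, 2296 with Ssz1 S295F and 1838 with vector (-0.59 ± 0.06). MHT1, which uses S-methylmethionine to make methionine, read 879 with the Zuo1 fragment, 1310 with Ssz1 S295F and 2152 with vector. Both were lower with the Zuo1 fragment, in a sulfur list with 15 of 33 members above the filter negative (17 of all 36) and a median of 0.01. In the same list MET14, the adenylylsulfate kinase, was higher (0.32 ± 0.02) and MET13, a methylenetetrahydrofolate reductase, lower (-0.30 ± 0.02), neither past 1.3-fold. YPK2, a kinase of membrane stress signalling, read 4162 with the Zuo1 fragment, 5922 with Ssz1 S295F and 693 with vector (-0.51 ± 0.04), while its list, sphingolipids, had a median of 0.00. INO1, the inositol-3-phosphate synthase, read 1734 with the Zuo1 fragment, 1229 with Ssz1 S295F and 2337 with vector (0.50 ± 0.04).

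Genes of the tricarboxylic acid cycle and of glycogen and trehalose were mostly negative, none past 1.3-fold above the filter, where 1.75% of all genes were. Of 19 tricarboxylic acid cycle genes above the filter, 16 were negative, with a median of -0.09, and 17 of all 20 were negative. SDH1, the flavoprotein subunit of succinate dehydrogenase, read 4932 with the Zuo1 fragment, 6006 with Ssz1 S295F and 2173 with vector (-0.28 ± 0.05). The pyruvate carboxylases PYC2 and PYC1 were at -0.24 ± 0.15 and -0.21 ± 0.03. Of 14 glycogen and trehalose genes above the filter, 10 were negative, and 15 of all 20, with NTH2, a trehalase, at -0.31 ± 0.13 and GLC3, the glycogen branching enzyme, at -0.29 ± 0.09. Amino acid biosynthesis had 35 of 47 members negative and a median of -0.06, with no member past 1.3-fold, beside the same 1.75% of all genes. The meiosis list, with 5 of 25 members above the filter, had a median of -0.18 over those 5 and -0.06 over all 25. Its members past 1.3-fold were RIM4, an RNA-binding regulator of meiotic translation (-0.54 ± 0.07), and SPS19, a peroxisomal dienoyl-CoA reductase (-0.50 ± 0.09).

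Large growth-related families had small differences of the same sign across nearly all members. Of 131 cytosolic ribosomal protein genes, 130 were positive, with a median of 0.09. Of 73 ribosome biogenesis genes, 67 were positive, with a median of 0.10 and UTP30 and NHP2 farthest from 0 at 0.32 ± 0.04 and 0.29 ± 0.03. Of 40 mitochondrial ribosomal protein genes above the filter, 37 were positive, with a median of 0.12, as were 51 of all 55. All 10 histone genes were positive, with a median of 0.12. None of these families had a member past 1.5-fold, beside 0.34% of all genes above the filter. At that share, families of this size would hold few or none.

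The sign of a difference moved with gene length across the array. Over the 4411 genes, the Spearman correlation of the difference with coding length was -0.43, given as a description across genes, which share 2 arrays. Over 5 bins of about equal gene number, in the shortest (78 to 750 bp) the median difference was 0.10 and 81.9% of genes were positive, against -0.04 and 36.9% in the longest (2268 to 14733 bp). With a smooth trend in coding length subtracted, the ribosomal protein median was 0.01, the mitochondrial ribosomal 0.03 and the histone median -0.03, the opposite sign, while ribosome biogenesis stayed at 0.09 and Pdr1 and Pdr3 targets at -0.14. Nuclear genes of oxidative phosphorylation had a median of 0.00 before and -0.11 after the subtraction, and genes of the tricarboxylic acid cycle -0.09 and -0.14. What produced the trend with length was not tested.

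**Figure D5:**
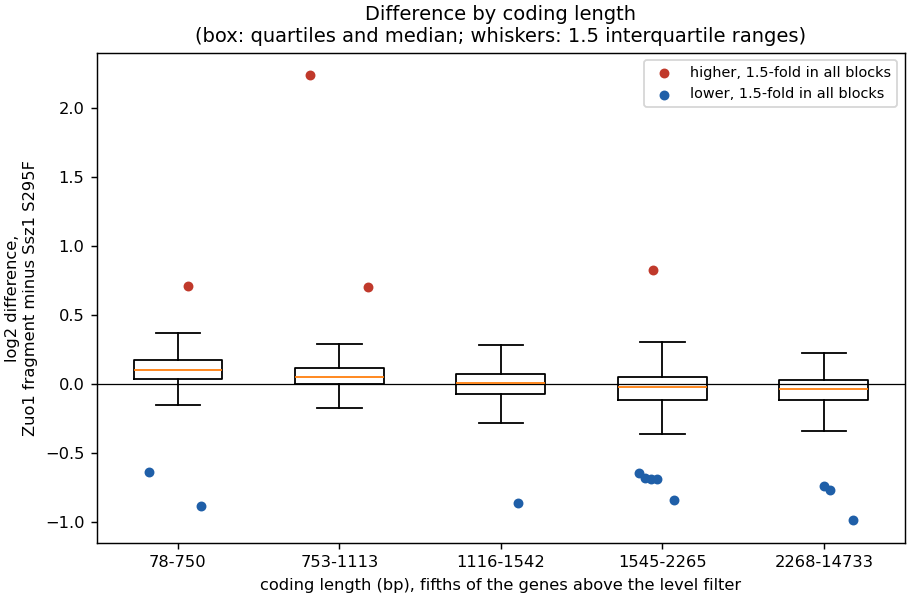
Box plots of the log2 difference, Zuo1 fragment minus Ssz1 S295F (y), in 5 bins of coding length in bp (x) for genes above the level filter, with the 4 higher genes in red and the 11 lower genes in blue; PRM7 is placed by the 348 bp that the array gives it. Box medians run from 0.10 in the shortest bin to -0.04 in the longest.

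Below the level filter, 73 of 1366 genes were past 1.5-fold in all 3 blocks, 23 higher (1.68%) and 50 lower (3.66%) with the Zuo1 fragment. The share was larger than above the filter, and the spread of differences was wider among dim genes throughout: the SD over genes was 0.221 in the dimmest and 0.104 in the brightest of 5 bins by mean level above the filter. Of the calls above the filter, 8 of the 11 lower and 2 of the 4 higher genes were in that dimmest bin, and SSZ1, VHR1, GUT2, YRO2 and PRM7 were the 5 outside it that read at or above the 25th percentile on both arrays.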

How the data were processed

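Per the submitters' processing notes the authors ran RMA, which corrects background, normalizes arrays and summarizes a gene's probes, and they deposited the resulting linear intensity for each gene. Its software and version are not stated in the labels. The file headers show 3 intensity values per gene and array (5777 genes, 1 value per block) from up to 8 probes, and coordinates on chromosome sequences of 2008. The error column beside them is unexplained and was left out. The series-wide table equals the mean over blocks within a relative difference of 3.33e-10 and served as an alternative.

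Block values were taken to log2 with no floor or pseudocount, the blocks were averaged, and the Ssz1 S295F array was subtracted from the Zuo1 fragment array (Python 3.11.15, pandas 2.3.3, numpy 2.4.6). The levels printed are 2 to the power of these means. Trends were fitted with statsmodels 0.14.6 lowess (span 0.3). Coding length runs from the first to the last coding base, introns included. The rule for calls was tested on simulated data whose only noise was the spread between blocks. That test does not cover noise between arrays or between cultures. With 1 array per group the number of arrays limits the precision, and the block values are not samples.

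Names come from a RefSeq gene table matched by locus tag (5771 genes; 6 kept the array's name). The members and lists were chosen with earlier results of these data known. The lists were corrected after list medians had been seen: 3 genes that did not belong were taken out of the anaerobic wall list, 1 cell wall entry was replaced by the gene meant, and gene names were updated. The rule for naming took SSZ1, ZUO1, TDH3, LEU2 and PDR5, the called genes (up to 15 each way), called members of lists or, in lists with none, the 4 members with the largest difference in size, and the Pdr1 and Pdr3 targets. Genes just inside or outside a limit, copies and overlapping genes were added. Lists of ribosomal proteins were built from gene symbols. Alternatives were the series-wide table, other scalings, level filters and thresholds, single blocks, and subtracted trends with level and coding length.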

Additional observations from a re-analysis of the deposited data

How the results depend on the processing

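No paired analysis was possible because each group has 1 array, and for the same reason no replicate could be left out. All 15 called genes kept their sign in all 15 other settings, as did the medians of 32 of the 46 lists, and 14 lists had the other sign in at least 1 setting. For the called genes this follows largely from the rule, which asks for the same direction in every block. Filters and limits also leave a gene's difference unchanged. Every setting used the same pair of arrays. Against 4 higher and 11 lower genes, the series-wide table, the mean over blocks without a demand on single blocks, and the log2 of the linear mean each gave 7 higher and 15 lower. Centring gave 3 and 12, quantile normalization 3 and 11, the level trend 3 and 13, and the length trend 2 and 17. Block 1 alone gave 8 and 21, block 2 alone 7 and 13, and block 3 alone 5 and 16. Without the level filter the counts were 27 and 61. A filter at the 50th percentile and the 25th percentile on both arrays each left 2 and 3, of which all 5 were among the original calls; the first asks more of the brighter array and the second also asks it of the dimmer. A 2-fold limit left 1 and 0, and a 1.3-fold limit 27 and 50; fewer or more genes follow from these limits by construction. The median difference of all genes, 0.0249 here, was -0.00236 after centring, 0.0115 after quantile normalization, 0.00542 after the level trend, -0.00153 after the length trend, 0.0273 without the filter, 0.0236 at the 50th percentile and 0.0239 in block 3 alone. These small shifts follow from the settings. Centring subtracts 0.0273, the median without the filter, and the trend settings subtract a fitted curve. Quantile normalization gives the arrays the same distribution, level filters change the genes counted, and block 3 alone leaves out the other blocks. Signal over background was not used here, and a gene below the 25th percentile of an array may be read less surely than its block SD shows.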

Other observations

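Gag and Gag-Pol genes of Ty retrotransposons above the level filter were mostly below 0. Of 61 on the array, 56 passed the level filter, with a median difference of -0.16 (Zuo1 fragment minus Ssz1 S295F), from -0.43 to 0.10. Of the 56, 49 were negative, while 57.7% of all genes above the filter were positive. Past 1.3-fold, 3 were lower, beside 1.13% of all genes, and none passed 1.5-fold. The median was -0.13 after subtraction of the length trend. It pools genes that differed: Gag genes were mostly lower (YNL284C-A -0.43) and Gag-Pol genes mostly nearer 0 (YER138C -0.01). Each kind had exceptions, such as the Gag gene YGR109W-A (0.10) and the Gag-Pol gene YJR027W (-0.28). Many of them are close copies that share probes' targets, so they count as few independent readings. The set was chosen after its values were seen, together with the subtelomeric Y' element genes, also close copies, whose 6 members had a median of 0.11.

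By chromosome, the median difference of genes above the level filter ran from -0.03 on chromosome I (65 genes) to 0.03 on chromosome VII. Genes named here after their values were seen include the dim CDA1, a chitin deacetylase of the spore wall, at -1.92 on the log2 scale, with 47.2 on the Zuo1 fragment array and 179 on the Ssz1 S295F array, both under the 5th percentile.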
